A study of Mus musculus with 8 samples.

Results

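The Eph receptors and ephrins examined here were 10 genes chosen by name, with earlier results of these data known. They were 6 receptors (Epha3, Epha4, Epha5, Epha7, Ephb1 and Ephb2) and 4 ephrins (Efna3, Efna5, Efnb2 and Efnb3). Of these, 9 had an array probeset assigned to that gene alone, and 8 of the 9 passed the filter on low signal, so that the results concern 8 genes among 22112 tested probesets of 35512 on the array. Ephb2 was not analysed here, and Efna3 was listed on every array but lay under the signal filter in all groups.

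The measurements came from midbrain dopaminergic (mDA) neurons of newborn mice (P1-P4) of the strain C57Bl/6 in the sample labels and of a C57Bl/6J background in the study's methods. The substantia nigra pars compacta (SNc) and the ventral tegmental area (VTA) were cut out separately, dissociated with papain, and sorted for cells that carried EGFP and excluded propidium iodide. Wild-type (WT) pups were Pitx3+/+;Th-EGFP+/- and knockout (KO) pups were Pitx3-/-;Th-EGFP+/-, so every group was heterozygous for the Th-EGFP transgene, in which sequences of the tyrosine hydroxylase gene drive EGFP and mark catecholaminergic cells as a class. Each of the 4 groups (named SNc WT, VTA WT, SNc KO and VTA KO) was hybridized on 2 Affymetrix Mouse Gene 1.0 ST arrays, and each array held RNA of frozen batches of sorted cells that had been pooled. Pitx3 is a homeodomain transcription factor of mDA neurons, and according to the study the SNc of the knockout has by birth lost the neurons that would express it, leaving the dorsal ones, whereas in the VTA they are still present. A difference between SNc KO and SNc WT therefore compared unlike mixtures of neurons, and for these pooled cells, fewer cells of a type and less RNA per cell cannot be told apart.

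Eph receptors are receptor tyrosine kinases and ephrins are their membrane-bound ligands, so that signalling occurs where 2 cells touch. Ephrins of the A class are held by a lipid anchor and bind mainly EphA receptors, while ephrins of the B class span the membrane and bind mainly EphB receptors. EphA4 is a known exception, since it also binds B-class ephrins. The family is best known for contact repulsion of growing axons, for the sorting of cells at tissue boundaries and for topographic maps, and in the midbrain it has been studied in the projection of mDA axons to the striatum. Ephrins also signal backwards into the cell that bears them, and ephrin-B2 is in addition a classical marker of arterial endothelium and is made by mural cells of vessels.

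Signals were log2 values after robust multi-array averaging (RMA), and a signal of 60 on the linear scale (5.91 on the log2 scale) in at least 1 group was required for testing. The 8 arrays had median log2 signals of 6.11 to 6.24, and 55.0% to 58.9% of the probesets of each array reached a signal of 60. Arrays of a group correlated at 0.957 (VTA KO) to 0.980 (VTA WT) across probesets, and the root mean square SD between the arrays of a group was 0.24 in both WT groups, 0.25 for SNc KO and 0.38 for VTA KO, so the VTA KO values carried the most error. The Pitx3 probeset gave log2 signals of 7.72 and 7.63 in SNc WT, 7.87 and 7.94 in SNc KO, 8.10 and 7.84 in VTA WT and 8.08 and 7.92 in VTA KO. It was thus not lower on the knockout arrays, and since it is not given whether this probeset lies in the deleted sequence, it does not check the genotype. Nothing states that the arrays of a group came from separate litters, so a p-value here reflects the spread between the arrays used, which may be technical.

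Among the receptors, Epha4 had its highest signal in wild-type SNc neurons. Its log2 signals were 8.50 and 8.53 in SNc WT, 7.33 and 7.39 in SNc KO, 7.52 and 7.54 in VTA WT, and 7.18 and 6.76 in VTA KO. No 2 groups overlapped, and the order was SNc WT, VTA WT, SNc KO and VTA KO. On the linear scale Epha4 in SNc WT was 1.98-fold above VTA WT (log2 difference 0.99, SE 0.15, 95% confidence interval 0.62 to 1.35, limma adjusted p = 0.0639). Its level in SNc KO was 2.24-fold below SNc WT (log2 difference -1.16, SE 0.15, 95% confidence interval -1.53 to -0.79, limma adjusted p = 0.0730). Neither difference passed the adjusted threshold of 0.05, and both passed the thresholds of the study, which were a fold of at least 1.5, an unadjusted p of at most 0.05 and a signal of at least 60, applied here with the p of limma.

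Epha5, a receptor of A-class ephrins found in many developing axons, showed a smaller difference of the same direction between the SNc groups. The log2 signals were 10.16 and 10.15 in SNc WT, 9.48 and 9.32 in SNc KO, 9.87 and 9.90 in VTA WT, and 9.77 and 9.62 in VTA KO. The groups were again all apart, with SNc KO lowest. The log2 difference of SNc KO from SNc WT was -0.76 (SE 0.11, 95% confidence interval -1.03 to -0.48, 1.69-fold lower, limma adjusted p = 0.110), which passed the thresholds of the study only. Between SNc WT and VTA WT it was 0.27 (limma adjusted p = 0.272), a difference that passed neither rule.

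Efnb2, which encodes ephrin-B2, ran in the opposite direction. Its log2 signals were 7.06 and 6.51 in SNc WT, 8.05 and 7.85 in SNc KO, 7.49 and 7.34 in VTA WT, and 8.08 and 7.82 in VTA KO. The SNc WT arrays were the lowest, the VTA WT arrays lay between, and the arrays of the 2 knockout groups overlapped at the top. In SNc KO the signal was 2.24-fold above SNc WT (log2 difference 1.17, SE 0.20, 95% confidence interval 0.67 to 1.66, limma adjusted p = 0.156), which passed the thresholds of the study only. SNc WT was 1.55-fold lower than VTA WT (log2 difference -0.63, SE 0.20, limma adjusted p = 0.195), also past the thresholds of the study only. That second difference rested on single arrays, since it was -0.35 without the SNc WT 2 array and -0.55 without the VTA WT 1 array, and neither passed the thresholds of the study.

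The plot of signals by array shows these patterns beside the other genes measured.

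**Figure D1:**
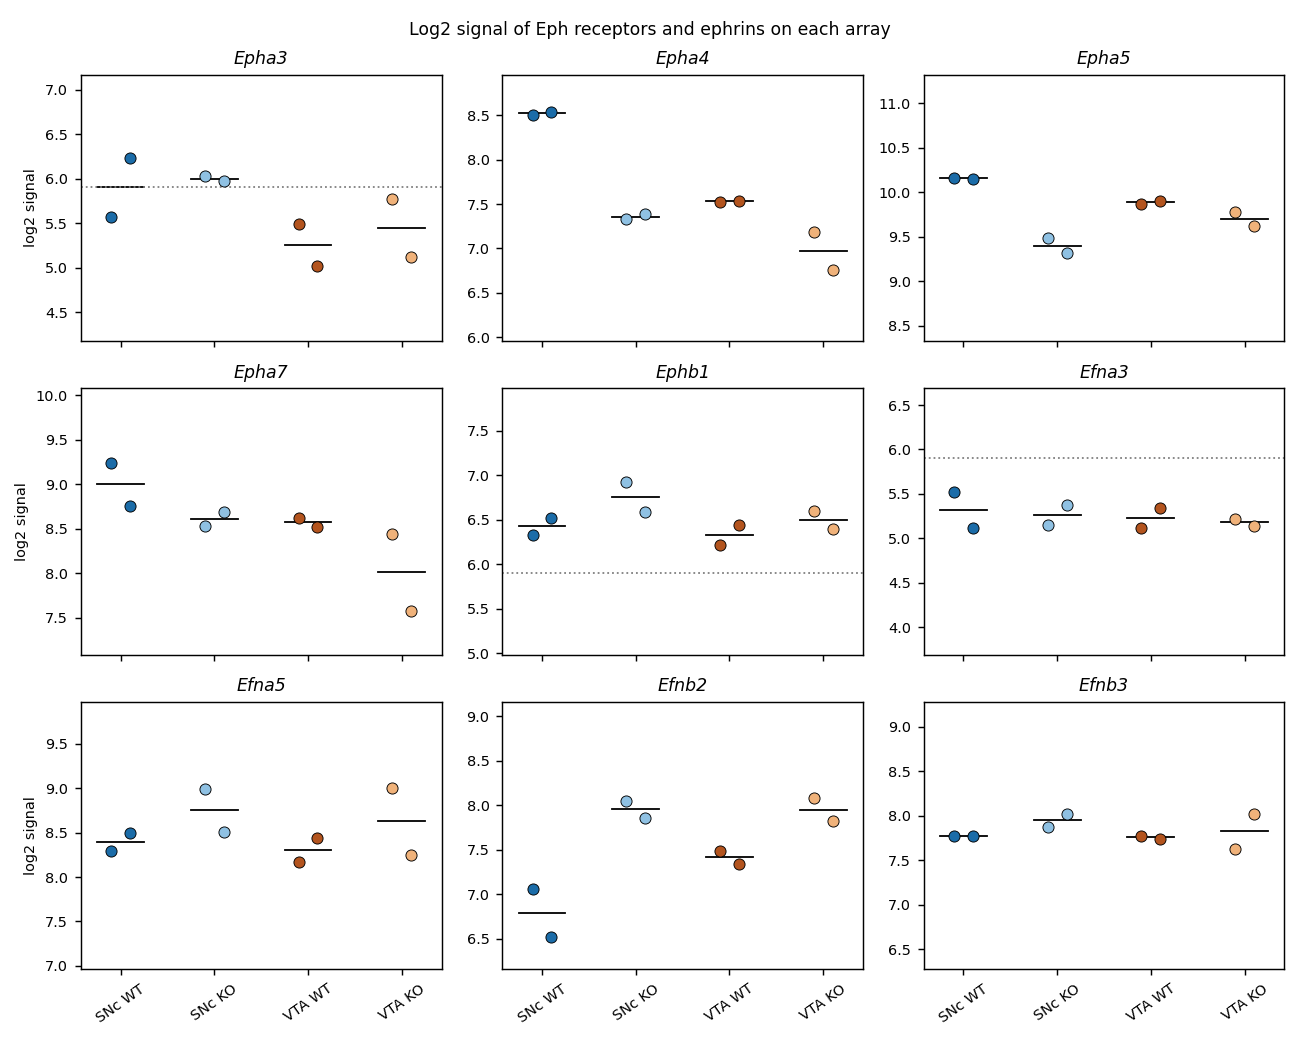
Log2 signal (vertical axis) of each gene with a probeset on the 8 arrays, by group (horizontal axis). Points are single arrays, black bars are group means (n = 2), the dotted line is the signal of 60, and every panel spans the same log2 range around its own median. Epha4 stands at 8.50 and 8.53 in SNc WT and at 7.54 or less elsewhere, and Efnb2 is lowest in SNc WT.

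For the 3 genes that passed the thresholds of the study, the 250 bases before an annotated transcript start are given for reference, from the RefSeq table of the mouse build GRCm38.p6 (5′ to 3′, on the strand of the gene, the minus strand in each case). They lie at chr1:77515089-77515338 for Epha4, chr5:84417383-84417632 for Epha5 and chr8:8661243-8661492 for Efnb2. Capitals mark the GC box GGGCGG, a motif chosen after the sequences had been seen.
Epha4: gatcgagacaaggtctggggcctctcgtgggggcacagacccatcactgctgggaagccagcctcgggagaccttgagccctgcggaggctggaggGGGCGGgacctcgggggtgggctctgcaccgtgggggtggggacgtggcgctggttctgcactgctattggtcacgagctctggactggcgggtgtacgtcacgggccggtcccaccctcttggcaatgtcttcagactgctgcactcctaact
Epha5: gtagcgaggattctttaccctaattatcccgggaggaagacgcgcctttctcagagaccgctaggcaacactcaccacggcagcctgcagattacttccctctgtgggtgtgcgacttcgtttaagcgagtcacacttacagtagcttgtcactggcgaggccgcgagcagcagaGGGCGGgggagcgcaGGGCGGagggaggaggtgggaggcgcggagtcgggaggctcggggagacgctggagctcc
Efnb2: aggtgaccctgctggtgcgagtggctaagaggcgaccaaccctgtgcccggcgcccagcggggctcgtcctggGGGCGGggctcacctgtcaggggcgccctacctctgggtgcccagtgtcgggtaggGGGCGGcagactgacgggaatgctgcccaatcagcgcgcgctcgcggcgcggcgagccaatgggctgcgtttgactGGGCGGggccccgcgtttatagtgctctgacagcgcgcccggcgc
These windows had GC contents of 66% (Epha4), 62.4% (Epha5) and 72% (Efnb2), and held 1, 2 and 3 GC boxes. On either strand, the GC box was found in at least 1 window of 6 of the 9 genes in the table, beside 35.4% of all 27025 genes there (32.7% of 32851 windows of this length). The bicoid-class motif TAATCC, which Pitx factors can bind, was in the windows of 0 of the 9 genes, beside 7.21% of all genes (6.25% of windows). The motif AAAGGTCA, which Nr4a2 can bind, was likewise in 0 of the 9, beside 1.55% of all genes (1.34% of windows). No matches overlapped, and these counts describe the windows alone. The table did not hold Efnb3.

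Epha7, another EphA receptor with roles in repulsion and in the shaping of cortex and tectum, had log2 signals of 9.24 and 8.76 in SNc WT, 8.53 and 8.69 in SNc KO, 8.63 and 8.52 in VTA WT, and 8.45 and 7.58 in VTA KO. The SNc WT arrays were highest and the VTA KO arrays lowest, while SNc KO and VTA WT overlapped. The log2 differences of 0.43 (SNc WT against VTA WT, limma adjusted p = 0.474), -0.39 (SNc KO against SNc WT, limma adjusted p = 0.814) and -0.56 (VTA KO against VTA WT, limma adjusted p = 0.586) passed no rule.

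Epha3, whose product guides axons in several tracts, lay near the filter. Its log2 signals were 5.57 and 6.24 in SNc WT, 6.03 and 5.97 in SNc KO, 5.49 and 5.02 in VTA WT, and 5.77 and 5.12 in VTA KO. Only 3 of the 8 arrays reached a signal of 60, and the gene was tested through the SNc KO mean alone. The SNc WT arrays were far apart, and the difference of SNc WT from VTA WT was 0.65 (95% confidence interval -0.093 to 1.39, limma adjusted p = 0.312), so a difference was not shown and was not excluded at this precision.

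Ephb1, a receptor of B-class ephrins known for steering retinal axons at the midline, was measured by 2 probesets. The brighter gave 6.33 and 6.52 in SNc WT, 6.93 and 6.58 in SNc KO, 6.22 and 6.44 in VTA WT, and 6.59 and 6.40 in VTA KO, with log2 differences of 0.097, 0.33 and 0.17 in the comparisons of SNc WT with VTA WT, SNc KO with SNc WT and VTA KO with VTA WT (limma adjusted p = 0.787, 0.679 and 0.778). The other differed in sign in SNc KO (-0.20), and in VTA KO its difference of 0.78 from VTA WT (limma adjusted p = 0.575) came with 1 high array, at 7.11 against 5.83 for the other. No direction can be given for Ephb1.

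The other ephrins passed no rule in any comparison. Efna5, an A-class ligand known from the retinotectal map, had log2 signals of 8.30 and 8.49 in SNc WT, 8.99 and 8.50 in SNc KO, 8.17 and 8.43 in VTA WT, and 9.00 and 8.25 in VTA KO. Its differences were 0.094 for SNc WT against VTA WT (limma adjusted p = 0.888, and -0.014 after quantile normalization), 0.35 for SNc KO against SNc WT (95% confidence interval -0.33 to 1.04, limma adjusted p = 0.827) and 0.32 for VTA KO against VTA WT (limma adjusted p = 0.751). The SNc groups of Efna5 just missed overlapping, and in the other 3 comparisons the arrays overlapped.

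Efnb3, a B-class ligand known for keeping corticospinal axons from crossing the midline, had log2 signals of 7.78 and 7.78 in SNc WT, 7.88 and 8.02 in SNc KO, 7.77 and 7.75 in VTA WT, and 7.63 and 8.03 in VTA KO. The knockout difference was 0.17 in SNc (limma adjusted p = 0.846) and 0.068 in VTA (limma adjusted p = 0.908), and that of SNc WT from VTA WT was 0.020, with the sign turned to -0.055 after quantile normalization. Efna3, another A-class ligand, stayed between 5.12 and 5.52 on the 8 arrays.

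Set together, the 8 tested genes gave 0 calls at an adjusted p under 0.05 in each comparison by limma, with 2 below an unadjusted p of 0.05 for SNc WT against VTA WT (18.8% of all tested probesets), 3 for SNc KO against SNc WT (8.62%), 2 for VTA KO against VTA WT (10.2%) and 2 for SNc KO against VTA KO (17.5%). Over all 22112 tested probesets the adjusted rule called 0.439% for SNc WT against VTA WT, 0.149% for SNc KO against SNc WT, 0.00904% for VTA KO against VTA WT and 0.149% for SNc KO against VTA KO. At this size a count of 0 among 8 is close to what these shares give for any 8 probesets. The first and second comparisons share the SNc WT arrays, and the first and VTA knockout comparisons share the VTA WT arrays, so a deviating array of a shared group moves both.

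By the thresholds of the study, SNc WT against VTA WT had 1 gene higher (Epha4) and 1 lower (Efnb2) of 8, where 2.66% of all tested probesets were higher and 3.96% lower. SNc KO against SNc WT had 1 higher (Efnb2) and 2 lower (Epha4 and Epha5), where 1.84% were higher and 1.76% lower. The median log2 difference of the 8 genes was 0.18 in the first of these comparisons and 0.14 in the second, against 0.0080 and 0.014 over all tested probesets. Of the 8 genes, 7 lay above 0 in the first and 5 in the second. Since the genes were chosen with earlier results of these data known, these counts are no test of the family.

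**Figure D2:**
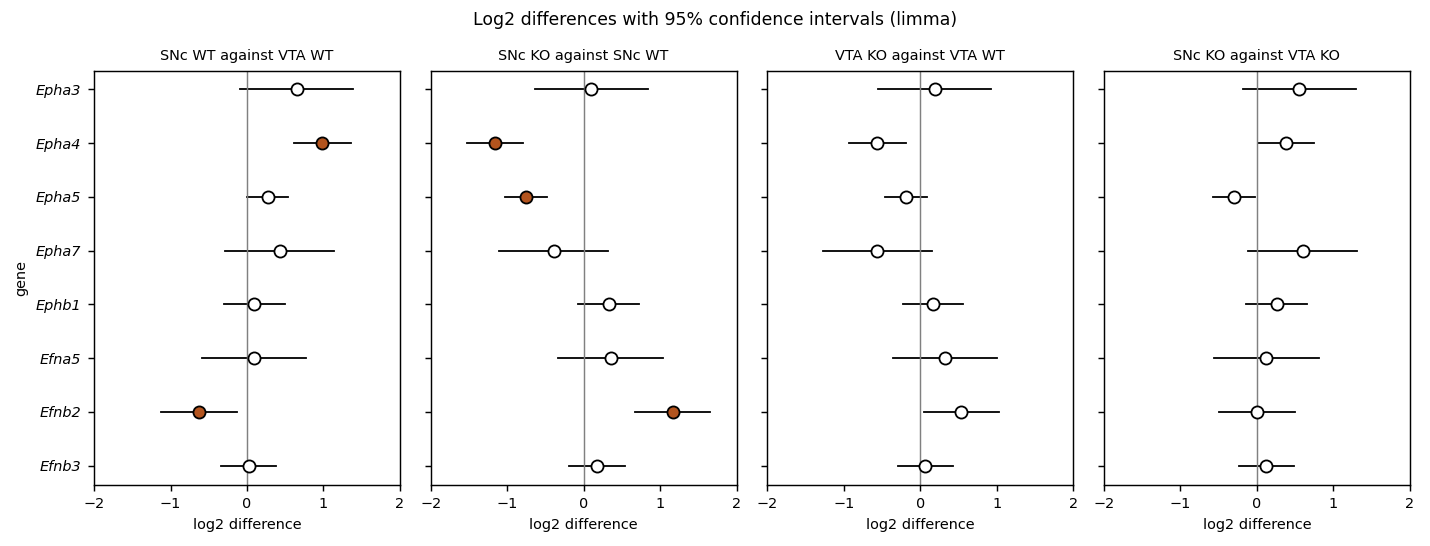
Log2 difference (horizontal axis) of the 8 tested genes (vertical axis) in 4 comparisons, first group minus second, with 95% confidence intervals from limma. Filled points passed the thresholds of the study: Epha4 (0.99) and Efnb2 (-0.63) for SNc WT against VTA WT, and Epha4 (-1.16), Epha5 (-0.76) and Efnb2 (1.17) for SNc KO against SNc WT.

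In VTA, the comparison of knockout with wild type gave 0 calls among the 8 genes by either rule, against 1.92% of all tested probesets higher and 2.42% lower at the thresholds of the study. Epha4 came nearest, at 1.47-fold lower in VTA KO (log2 difference -0.56, limma adjusted p = 0.304), with both VTA KO arrays below both VTA WT arrays. Efnb2 was 1.45-fold higher (log2 difference 0.54, limma adjusted p = 0.449), and Epha5 differed by -0.19 (limma adjusted p = 0.619). The VTA KO arrays lay far apart for several genes, and each decided calls. Without the VTA KO 1 array, Epha4 (-0.77) and Epha7 (-0.99) passed the thresholds of the study, and without the VTA KO 2 array, Efna5 (0.70) and Efnb2 (0.66) did.

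The test of whether the knockout difference was unequal in SNc and VTA called 0 of the 8 genes and 0% of all tested probesets at an adjusted p under 0.05 by limma, and 2 of the 8 were below an unadjusted p of 0.05, as were 9.89% of all. For Epha4 the SNc knockout difference minus the VTA knockout difference was -0.60 on the log2 scale (SE 0.22, limma adjusted p = 0.473). For Epha5 this value was -0.57 (limma adjusted p = 0.411), and for Efnb2 it was 0.63 (limma adjusted p = 0.539). Epha4 passed the fold and unadjusted p thresholds of the study in this test, as did 3.06% of all tested probesets with a lower value, and it passed them in 8 of 16 alternative analyses. No difference between the knockout effects was shown at an adjusted p under 0.05.

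The knockout groups were also set against each other. None of the 8 genes was called by either rule for SNc KO against VTA KO (2 had an unadjusted limma p under 0.05, as did 17.5% of all tested probesets), where 3.47% of all tested probesets were higher and 3.5% lower at the thresholds of the study. Efnb2 differed by 0.0019 (95% confidence interval -0.49 to 0.50, limma adjusted p = 0.998, and -0.11 after quantile normalization). Epha4 was 0.39 higher in SNc KO (limma adjusted p = 0.269) and Epha5 0.30 lower, a difference of -0.30 (limma adjusted p = 0.260). Epha7 was 0.60 higher (limma adjusted p = 0.342), and without the VTA KO 1 array Epha7 (1.03), Epha3 (0.88) and Epha4 (0.60) passed the thresholds of the study.

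Arrays of the compared groups did not overlap for 6 of the 8 genes between SNc WT and VTA WT (5 higher, 1 lower), where 58.3% of all tested probesets did not. The count was 7 between SNc KO and SNc WT (4 higher, 3 lower), against 44% of all tested probesets. It was 4 between VTA KO and VTA WT (1 higher, 3 lower), against 38.2%, and 4 between SNc KO and VTA KO (3 higher, 1 lower), against 48.6%. Non-overlap was thus common on these arrays. Epha4, Epha5 and Epha7 had it in all 4 comparisons, with SNc WT above VTA WT and each knockout below its wild type. The comparisons share arrays, and the share of all tested probesets with non-overlap in all 4 was not computed. No pattern of the family is therefore read from these 3 genes.

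Genes with the pattern most like that of Epha4 were sought over the 8 arrays, each gene centred on its own mean, among 13263 others. The closest was Pvalb, which encodes the calcium buffer parvalbumin, at a root mean square log2 difference of 0.178, followed by Cpne4 at 0.186 and Nwd2 at 0.200. The median over all genes was 0.602, and the Epha4 profile itself had an SD of 0.62. Pvalb had a group mean log2 signal of 6.54 for SNc WT, 5.55 for VTA WT, 5.31 for SNc KO and 5.24 for VTA KO, so that only the SNc WT mean reached the filter. For Epha5, whose profile had an SD of 0.30, the closest were Usp3 (0.103), Tyrp1 (0.123) and Mir301b (0.124), against a median of 0.343. Tyrp1 and Mir301b, like Pvalb, reached the filter through SNc WT alone (means of 6.03 and 5.98), so a high SNc WT value was a condition of their being compared. These distances describe 8 arrays that share groups and were not tested.

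The rest of the family was listed as 12 genes, all with a probeset, of which 7 passed the signal filter (Epha6, Epha8, Epha10, Ephb6, Efna2, Efna4 and Efnb1). Epha1, Epha2, Ephb3, Ephb4 and Efna1 stayed under it in all groups. In the 4 comparisons, 0 of the 7 were called by limma at an adjusted p under 0.05 or at the thresholds of the study. An unadjusted p under 0.05 was found for 1, in VTA KO against VTA WT, beside 10.2% of all tested probesets. Their log2 differences ran from -0.27 to 0.079 for SNc WT against VTA WT (median -0.20) and from -0.11 to 0.17 for SNc KO against SNc WT (median -0.0055). For VTA KO against VTA WT they ran from -0.38 to 0.20 (median -0.074), and the median for SNc KO against VTA KO was -0.12. None of these 7 reached the size of the Epha4 or Efnb2 differences in the SNc.

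Partners and effectors of Eph and ephrin signalling formed a list of 43 genes, with adaptors, guanine nucleotide exchange factors, kinases and phosphatases among them, of which 42 had a probeset and 40 were tested. This list too was chosen with earlier results of these data known. For SNc WT against VTA WT, 1 of the 40 was called at an adjusted p under 0.05 by limma, beside 0.439% of all tested probesets. An unadjusted p under 0.05 was found for 7, beside 18.8% of all. The called gene was Vav3, a Vav family guanine nucleotide exchange factor that acts below activated Eph receptors. Its log2 signals were 7.38 and 7.37 in SNc WT, 6.75 and 6.63 in SNc KO, 6.16 and 6.20 in VTA WT, and 5.89 and 5.77 in VTA KO. The 4 groups stood apart, both SNc groups above both VTA groups. Of the 5 markers listed for red nucleus and oculomotor neurons, 4 had a probeset, and Pou4f1, Phox2a and Chat were under the filter. Their summed linear signals were 304 and 292 in SNc WT and 443 and 332 in SNc KO. In the VTA groups the sums were 182 and 168 (WT) and 168 and 132 (KO). Isl1 alone carried the higher SNc sums. It differed by 1.48 for SNc WT against VTA WT (limma adjusted p = 0.0743) and by 2.06 for SNc KO against VTA KO (limma adjusted p = 0.0602). Pou4f1, Phox2a and Chat had lower means in SNc WT than in VTA WT, so the sum stands for Isl1 and not for the list. The part of Isl1 in the Vav3 difference was not tested. The Vav3 difference of SNc WT from VTA WT was 1.20 (SE 0.11, limma adjusted p = 0.0165). In 17 alternative analyses the adjusted p ran from 0.00461 to 0.143 and 11 kept the call, which was lost without any 1 of the SNc WT, SNc KO or VTA WT arrays.

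For SNc KO against SNc WT, 0 of the 40 were called by limma at an adjusted p under 0.05 (6 had an unadjusted p under 0.05, beside 8.62% of all tested probesets). At the thresholds of the study 2 were lower, beside 1.76% of all tested probesets. They were Vav3, with a difference of -0.69 (limma adjusted p = 0.115), and Arhgef5, another exchange factor, with -0.61 (limma adjusted p = 0.415). Arhgef5 had log2 signals of 6.48 and 6.79 in SNc WT, 6.24 and 5.80 in SNc KO, 6.52 and 6.67 in VTA WT, and 6.39 and 6.48 in VTA KO. Its SNc KO arrays were the lowest, and another probeset of the gene gave -0.26. For VTA KO against VTA WT, 0 were called by either rule (6 with an unadjusted p under 0.05, beside 10.2% of all tested probesets). For SNc KO against VTA KO, 0 passed the adjusted threshold by limma (6 with an unadjusted p under 0.05, beside 17.5% of all tested probesets). Vav3 was higher there at the thresholds of the study (0.85, limma adjusted p = 0.0620), as were 3.47% of all tested probesets. The median difference of the list was 0.14, 0.022, -0.015 and 0.16 in these 4 comparisons, beside 0.0080, 0.014, -0.023 and 0.035 over all tested probesets.

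**Figure D3:**
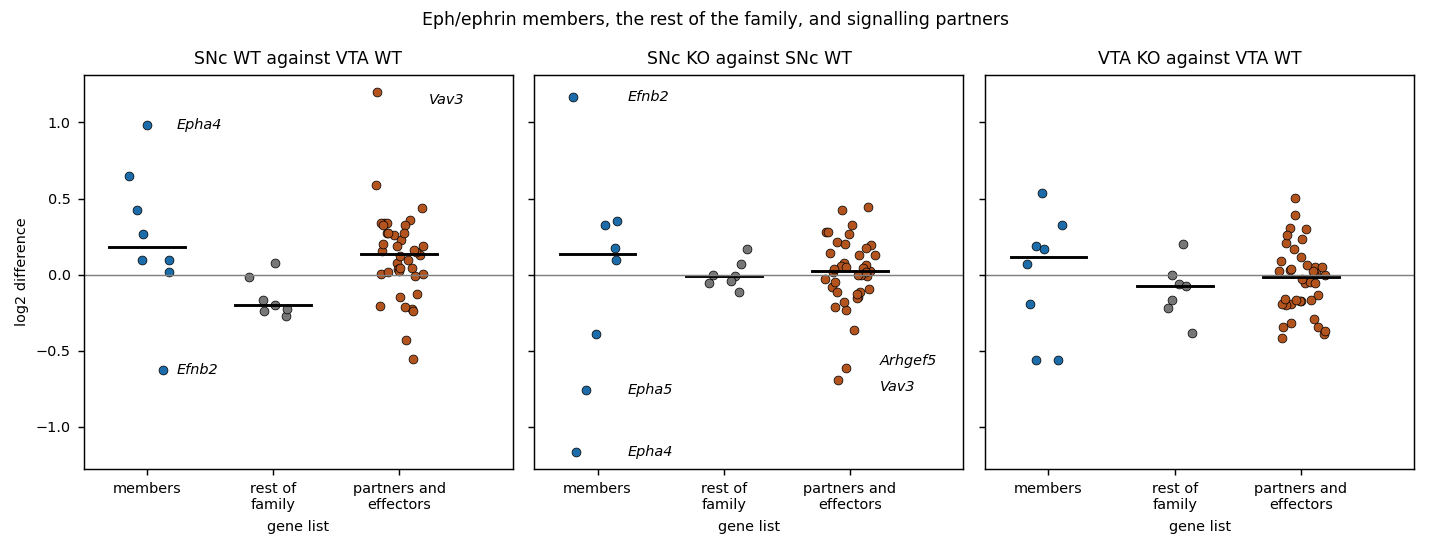
Log2 difference (vertical axis) of each tested gene of 3 lists (horizontal axis) in 3 comparisons, first group minus second; points are genes, and black bars are list medians. Named genes passed the thresholds of the study. Epha4 and Vav3 lie above the rest for SNc WT against VTA WT, and the rest of the family stays between -0.38 and 0.20 in the 3 comparisons.

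Markers of other cells that the sort could hold moved with some of these groups. All 8 dopaminergic markers (Th, Ddc, Slc6a3, Slc18a2, Nr4a2, En1, Foxa2 and Lmx1b) were above the filter, and their summed linear signal was 8396 and 7778 in SNc WT, 5626 and 6266 in SNc KO, 6867 and 6814 in VTA WT, and 5540 and 5709 in VTA KO. This sum and the signal of Epha4 were both highest in SNc WT, next in VTA WT and lower in the knockout groups, and the part of the one in the other was not tested. Most of the gap between SNc WT and VTA WT came from Slc6a3 (mean linear signals of 2038 and 1365) and Ddc (1727 and 1183). In that comparison 5 of the 8 markers were higher and 3 lower (Foxa2 at -0.33, Lmx1b at -0.14 and Slc18a2 at -0.037). None passed a rule, so the sum does not stand for the list. At the thresholds of the study 2 of the 8 were lower in SNc KO against SNc WT, beside 1.76% of all tested probesets. They were Slc6a3, the dopamine transporter (-0.98, limma adjusted p = 0.0770), and Ddc, which makes dopamine from its precursor (-0.64, limma adjusted p = 0.213). Slc6a3 was also lower in VTA KO against VTA WT (-0.90, limma adjusted p = 0.176). Th, whose sequences mark the sorted cells, differed by -0.084 in SNc KO against SNc WT (limma adjusted p = 0.938). The neuronal list of 7 genes summed to 14764 to 16388 on all arrays, so neuronal markers were high on each of them. The sum hides a shift of its members. For SNc WT against VTA WT all 7 lay above 0 (median 0.18), and 3 had an unadjusted limma p under 0.05. Elavl3 (0.65, limma adjusted p = 0.147) passed the thresholds of the study, and Rbfox3 (0.58, limma adjusted p = 0.103) did not. For SNc KO against SNc WT 5 lay below 0 (median -0.041), and none passed a rule. The part of this shift in the Epha4 difference was not tested.

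Efnb2 is made by several of these other cells. The 8 pericyte and smooth muscle markers, of which Lum was under the filter, summed to 767 and 652 in SNc WT, 1872 and 1683 in SNc KO, 2248 and 1667 in VTA WT, and 2113 and 488 in VTA KO. The sum was thus lowest in SNc WT apart from the VTA KO 2 array, and on that array Efnb2 stood at 7.82. The part of these cells in the Efnb2 differences was not tested. In SNc KO against SNc WT, Pdgfrb (1.18, limma adjusted p = 0.388) and Acta2 (1.79, limma adjusted p = 0.578) of this list were higher at the thresholds of the study. All 7 tested genes of the list lay above 0 there. Rgs5 was the largest part of the sum in SNc WT, SNc KO and VTA WT (mean linear signals of 265, 1076 and 1162). Its log2 signals in VTA KO were 10.29 and 6.22, and its difference of 2.02 in SNc KO against SNc WT (SE 1.16, limma adjusted p = 0.722) passed no rule. The endothelial list summed to 237 to 298 on the 8 arrays, with Pecam1, Cdh5, Tek and Kdr, 4 of its 6 genes, under the filter in all groups. The tested genes Cldn5 and Flt1 differed by -0.44 and -0.0088 in SNc WT against VTA WT (limma adjusted p = 0.132 and 0.984). In SNc KO against SNc WT they differed by 0.13 and 0.037, and neither gene passed a rule in these comparisons.

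Markers of other transmitters moved with Efnb2 in part, and the pooled cells do not show whether dopaminergic or other neurons carried them. Of the 4 glutamatergic markers, Slc17a7, Tbr1 and Pou4f1 were under the filter, and the sum was 646 and 547 in SNc WT, 1163 and 1102 in SNc KO, 941 and 1081 in VTA WT, and 1231 and 1104 in VTA KO. Slc17a6, the vesicular glutamate transporter of the midbrain, carried it, with a difference of 1.08 in SNc KO against SNc WT (limma adjusted p = 0.0811). In SNc WT against VTA WT it differed by -0.87 (limma adjusted p = 0.0747), and both differences passed the thresholds of the study. The 3 GABAergic markers summed to 759 and 818 in SNc WT, 1275 and 1160 in SNc KO, 750 and 762 in VTA WT, and 1232 and 1055 in VTA KO. That sum was higher in the knockout groups, as Efnb2 was, and its wild-type arrays overlapped, which those of Efnb2 did not. In the knockout comparisons only Slc32a1 of this list passed the thresholds of the study. Its differences were 0.94 in SNc KO against SNc WT (limma adjusted p = 0.0727) and 0.73 in VTA KO against VTA WT (limma adjusted p = 0.185). Gad1 of this list was higher in the SNc groups at the thresholds of the study, by 0.95 in SNc WT against VTA WT (limma adjusted p = 0.112) and by 1.04 in SNc KO against VTA KO (limma adjusted p = 0.144). The part of the cells that carried these markers in the Efnb2 and Epha4 differences was not tested.

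The summed signals of the astrocyte and ciliated lists lay close together in the SNc groups. The 7 astrocyte and radial glia markers (Gfap and Aldh1l1 under the filter) summed to 2232 to 2297 in SNc WT, 2325 to 2373 in SNc KO, 3317 to 3555 in VTA WT and 1719 to 2584 in VTA KO. Single members went apart in SNc KO against SNc WT, with Slc1a2 at -0.70, past the thresholds of the study (limma adjusted p = 0.180), and Aqp4 at 0.44 and Slc1a3 at 0.32, which passed no rule. In SNc WT against VTA WT all 5 tested genes of the list were lower, and 3 passed the thresholds of the study, as did 3.96% of all tested probesets in that direction. They were Gja1 (-2.24, limma adjusted p = 0.114), Slc1a3 (-1.10, limma adjusted p = 0.0504) and Aqp4 (-0.83, limma adjusted p = 0.136). The oligodendrocyte list of 6 genes, 5 with a probeset and Pdgfra under the filter, summed to 284 to 287 in SNc WT, 326 to 346 in SNc KO, 331 to 360 in VTA WT and 293 to 320.5 in VTA KO, and Olig2 differed by 0.58 in SNc KO against SNc WT (limma adjusted p = 0.532). The 8 ciliated and ependymal markers summed to 565 to 617 in SNc WT, 631 to 666 in SNc KO, 2587 to 2685 in VTA WT and 1205 to 1881 in VTA KO, so they set VTA WT apart from SNc WT, as Epha4 and Efnb2 did. In that comparison all 8 were lower in SNc WT, and 5 passed the thresholds of the study. Mia (-4.07, limma adjusted p = 0.0122) and Dynlrb2 (-3.67, limma adjusted p = 0.00943) were called at an adjusted p under 0.05, beside 0.439% of all tested probesets. The 6 microglia and macrophage markers (Csf1r, Aif1, C1qa and C1qb under the filter) summed to 334 to 445 on the 8 arrays. Mrc1, a scavenger receptor of macrophages in this list, fell by 1.40 on the log2 scale in SNc KO against SNc WT (limma adjusted p = 0.0380) and was higher by 1.26 in SNc WT against VTA WT (limma adjusted p = 0.0263). Its signals of 6.59 and 6.81 in SNc WT stood above 5.19 to 5.48 on the other arrays, so it was highest in SNc WT, as Epha4 was. Cx3cr1, the only other tested gene of the list, did not share this. Its mean log2 signals were 6.86 in SNc WT, 7.04 in SNc KO and 6.90 in VTA WT, so the Mrc1 values stand for that gene alone. The part of these lists in the Epha4, Epha5 and Efnb2 differences was not tested.

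**Figure D4:**
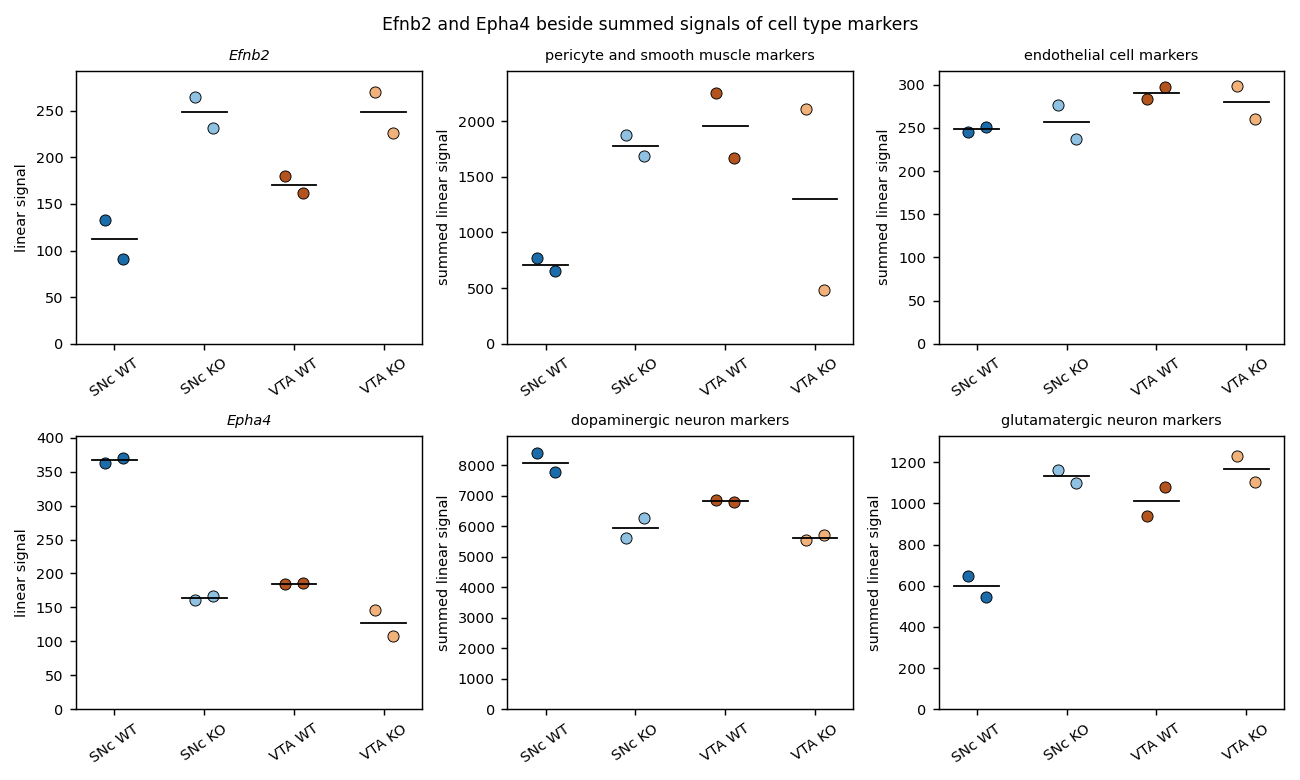
Linear signal of Efnb2 and Epha4, and summed linear signal of 4 marker lists (vertical axes), by group (horizontal axis); points are arrays and black bars group means (n = 2). Epha4 and the dopaminergic sum are highest in SNc WT, Efnb2 and the glutamatergic sum are lowest there, and the pericyte sum is low in SNc WT and, at 488, on the VTA KO 2 array.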

How the data were processed

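The authors amplified and labelled RNA of sorted cells and hybridized it to 8 arrays, 2 in each of 4 groups taken from the sample labels. The deposited table holds log2 signals after RMA normalization, per the labels. The sources used here give neither the RMA version nor a genome build for it. A probeset was named where the platform annotation pairs it with 1 gene symbol (21789 probesets, with 1621 of several symbols and 12102 of none), and a gene with several probesets was represented by that of highest mean. Group means over all 8 arrays were fitted with limma 3.58.1 (R 4.3.3) to the 22112 probesets with a mean signal of at least 60 in at least 1 group, and p-values were adjusted by the Benjamini-Hochberg method within each comparison. The methods of the study name the LPE algorithm, for which limma stood in. The fit was tested on simulated data. An array signal has no read depth, and 2 arrays per group limit the precision. Every member was named with its values, other family members and partners where called by either rule, and for the 2 members of smallest p the 3 genes of closest profile. Alternatives were another scaling, filter, variance model, probeset rule, the replicate number as a block, and leaving out each array. The members and gene lists were chosen with earlier results of these data known.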

Additional observations from a re-analysis of the deposited data

How the results depend on the processing

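Each result was recomputed under 9 other settings and without each of the 8 arrays in turn. Of 35 differences followed for the members (32 in the 4 comparisons of groups, and 3 differences of the knockout effects), 24 kept their sign throughout. After quantile normalization Efna5 (-0.014) and Efnb3 (-0.055) turned sign for SNc WT against VTA WT, as did Efnb2 (-0.11) and Efna5 (-0.012) for SNc KO against VTA KO, where Ephb1 did with the mean of its probesets (-0.18). Leaving out 1 array turned the sign of differences near 0. For SNc WT against VTA WT the ranges were -0.012 to 0.21 for Ephb1, -0.039 to 0.23 for Efna5 and, among the partners, -0.11 to 0.20 for Arhgef5. For SNc KO against SNc WT, Epha3 ran from -0.24 to 0.43. For VTA KO against VTA WT the ranges were -0.13 to 0.52 for Epha3, -0.054 to 0.70 for Efna5 and -0.13 to 0.27 for Efnb3, and for SNc KO against VTA KO they were -0.13 to 0.13 for Efnb2, -0.26 to 0.50 for Efna5 and -0.075 to 0.32 for Efnb3.

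The count of members at an adjusted p under 0.05 for SNc WT against VTA WT rose from 0 to 1, Epha4, with array medians subtracted, with the arrays of the 2 groups alone and with array weights, and was 0 to 1 with 1 array left out (1 without either VTA KO array). The adjusted p of Epha4 there ran from 0.0110 to 0.312, under the threshold in 5 of 17. For SNc KO against SNc WT the count was 2 (Epha4 and Epha5) with array weights and 0 to 1 with 1 array left out, Epha4 without either VTA KO array, with an adjusted p of 0.0178 to 0.485 for Epha4 and 0.0428 to 0.550 for Epha5. At the thresholds of the study, leaving out 1 array gave 1 to 3 members for SNc WT against VTA WT, 0 to 2 for VTA KO against VTA WT and 0 to 3 for SNc KO against VTA KO. The Efnb2 difference between SNc WT and VTA WT also missed those thresholds with array medians subtracted (-0.52). For SNc KO against SNc WT the 3 members remained Epha4, Epha5 and Efnb2 in all 17. Why these counts moved was not tested, apart from the changed spread and number of arrays that the settings themselves bring.

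Subtracting array medians moved the median of all tested probesets to 0.12 for SNc WT against VTA WT and 0.11 for SNc KO against VTA KO. Over all probesets, the adjusted calls ranged from 0 to 847 for SNc WT against VTA WT and from 0 to 89 for SNc KO against SNc WT. Arrays of the same replicate number showed little shared deviation (correlations of 0.0058 to 0.098 over 6 pairs of groups). Each group gives only the difference between its arrays, so whether arrays of the same number shared a litter or preparation cannot be told. With the replicate number as a block, 0 members passed the adjusted threshold in each comparison, and the thresholds of the study gave 2 for SNc WT against VTA WT and 3 for SNc KO against SNc WT, as without it.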
